A study of Mus musculus and Homo sapiens with 27 samples.

Results

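Ribosomal proteins and translation initiation and elongation factors were described on the human lymphochip, an array whose cDNA spots were chosen for lymphoid biology. Members were the genes whose single symbol starts with RPL or RPS and a digit, or with EIF or EEF, leaving out the kinase genes EIF2AK2 and RPS6K. This gave 53 genes of the 4604 with 1 symbol on the human array (4935 with the mouse array), 28 ribosomal proteins on 68 features and 25 factors on 52 features. The symbol rule uses no measured value, but the members were chosen with earlier results of these data known.

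Each of 4 arrays compared OCI-Ly7 cells that carried the Vxy-IRF4 vector, in the Cy5 channel, with OCI-Ly7 cells that carried the empty Vxypuro vector, in the Cy3 channel. OCI-Ly7 is a human line of diffuse large B-cell lymphoma (DLBCL) that the labels call GCB-like, that is, similar to germinal centre B cells. IRF4 is a transcription factor of plasma cell differentiation, which the vector expresses in human form. Day 3 had 2 arrays, and days 2 and 5 had 1 each, so the days were pooled as repeats. The series' design text speaks of biological repeats and does not describe the cultures. P-values therefore measure the spread between these arrays. The control is named an empty vector by the labels, which were followed, and non-transduced by the design text. A value is the log2 ratio of the channels after each array was set to a median of 0 over its 15246 features; the gene value is the mean of its features. Base 2 was read from the values, as described below. The direction, IRF4 vector over empty vector, was assumed from the dyes, and with the opposite direction all signs given here would be turned. The control RNA exists only as the second channel, with 1 dye orientation, so its own spread and a dye effect cannot be told apart from the ratio.

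Ribosomes carry out translation. The small subunit finds the start codon with the help of initiation factors (eIF), the large subunit joins, and elongation factors (eEF) then bring aminoacyl-tRNAs and move the ribosome along the mRNA. In mammals the mRNAs of ribosomal proteins and of several elongation factors share a pyrimidine-rich start, the 5′ terminal oligopyrimidine tract, through which mTOR signalling controls their translation. Plasma cells, which secrete antibody in bulk, are known for a high demand on protein synthesis.

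The arrays differed in ways that touch every value below. The pairwise correlation of the 4 arrays lay between 0.308 and 0.462 over all features, with none below 0, and the SD of the deposited values lay between 1.25 and 2.04, widest at day 5. IRF4 itself did not settle the direction: of its 4 features 1 was above 0 on all 4 arrays, at a mean of 0.69, and the others had means of 0.02, -0.36 and -0.45. Whether these features match the insert of the vector was not tested. Plasma cell markers had a median of 1.95 over 8 genes, with 6 above 0 on all 4 arrays and TNFRSF17, the receptor BCMA, past the threshold at 3.36 (limma adjusted p = 0.0455). The plasma cell markers MZB1 and SDC1 had means of -0.23 and -0.08. Of 10 mature or germinal centre B-cell genes 2 were above 0 on all 4 arrays and 4 were below (median -0.28). Of all genes 17.0% were above 0 on all 4 arrays and 21.0% were below. The median was -0.56 for 8 T and NK cell genes, -0.30 for 5 myeloid genes and -0.81 for 2 erythroid genes. A ratio within 1 line does not show whether a marker is present, so the cell type was not checked.

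Some values carry the mark of a channel at its lowest reading. On each array the commonest deposited value, shared by 75 to 208 features, recurs shifted by exactly the log2 of whole numbers, as it would if 1 channel read 1; the signals of the channels, which would show this, were not used here. Such values, matched within 0.001 for whole numbers up to 150, made up 6.93% of features at day 2, 2.42% and 5.57% on day 3 replicates 1 and 2 and 16.0% at day 5, where an offset moved by 0.3 matched 0.577% to 1.83%. Among the 2380 features of day 5 that lay more than 4 log2 units under the commonest value, 77.0% matched. Of the ribosomal and factor features at most 5.77% matched on any array, none on day 3 replicate 1, so the families were little touched. Single members were, and their values are given with and without these readings below, a choice made after seeing the data.

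Ribosomal protein genes lay above the array median on the whole, with a median over the 28 genes of 0.74 (log2), against 0.44 for the 25 factors and -0.14 for all 4604 genes. Above 0 on 4 of 4 arrays were 17 of 28 ribosomal proteins (60.7%) and 9 of 25 factors (36.0%), beside 17.0% of all genes. Below 0 on all 4 arrays were 1 ribosomal protein and 2 factors, beside 21.0% of all genes. With the whole-number readings left out, 18 of the 27 ribosomal proteins and 9 of the 23 factors still measured on 4 arrays were above 0 on each, beside 19.8% of the 4076 genes so measured, and 0 and 1 were below 0, beside 13.8%. No member was past the threshold of an adjusted p of 0.05 (limma against a ratio of 0, Benjamini-Hochberg over all 4604 genes), while 0.109% of all genes were (5 genes, 0.0434% higher and 0.0652% lower). At an unadjusted p under 0.05, 14 ribosomal proteins were higher and 1 was lower, and 3 factors were higher and 1 was lower, beside 7.91% of all genes higher and 16.0% lower. The family values are therefore a description of these arrays, and no single member is called as different between the vectors. With array weights, which favour day 3 replicate 2, EIF6, RPL11 and EIF4G1 passed the threshold, beside 5.69% of all genes, and with quantile normalization EIF6 alone of the members did, beside 2.04%. These member counts are near the background.

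**Figure D1:**
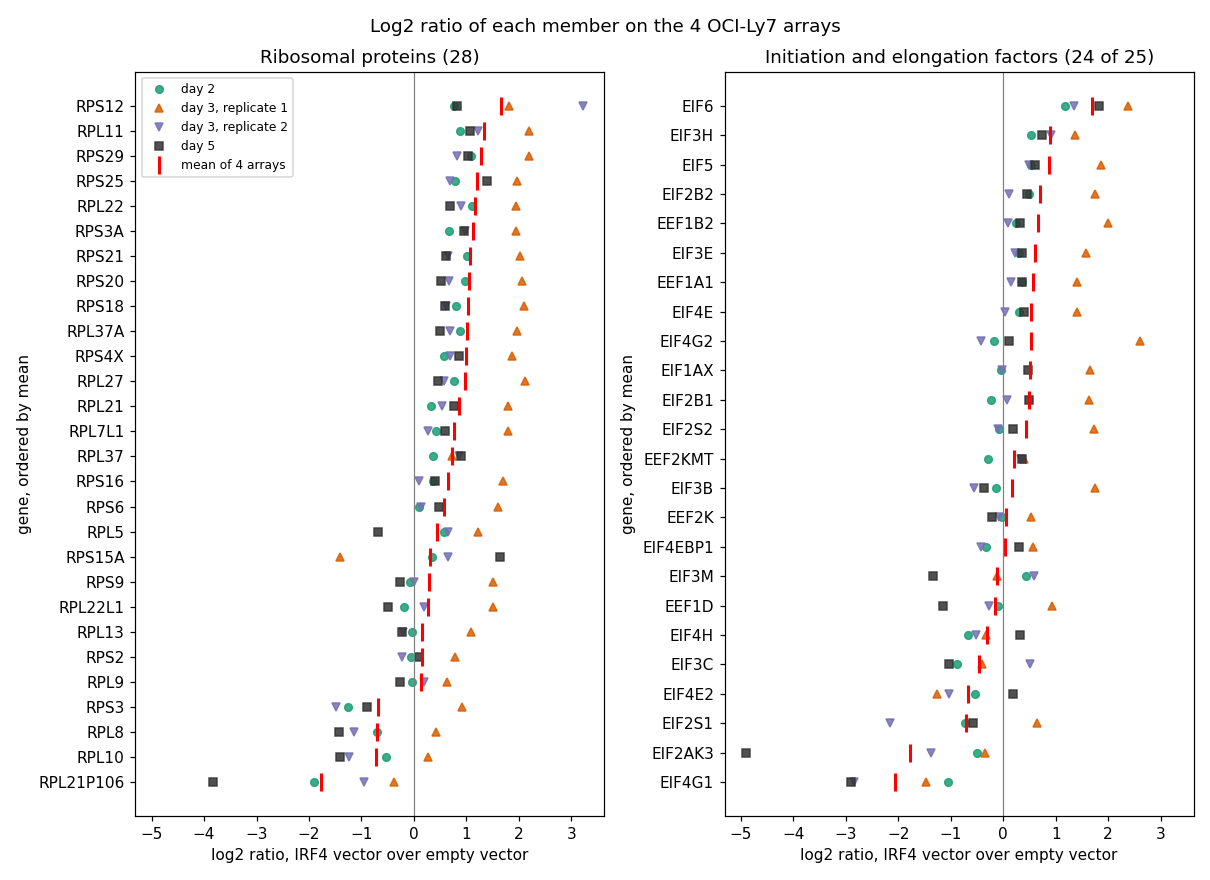
Log2 ratio (x axis, IRF4 vector over empty vector, each array centred on its median) of each member (y axis, ordered by mean), with 1 symbol per array and a red bar at the mean of the 4 arrays; EIF1AY, a Y-linked gene, is counted but not plotted. Most ribosomal proteins in the left panel have all 4 arrays above 0, and day 3 replicate 1 (triangles) is the highest of the 4 for most members in both panels.

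Day 3 replicate 1 was the array on which both families stood highest. The ribosomal median was 0.39 at day 2, 1.75 on day 3 replicate 1, 0.59 on day 3 replicate 2 and 0.51 at day 5. The factor median was -0.08, 1.37, 0.04 and 0.32 on the same arrays. Thus the 2 arrays of day 3 differed by more than any of the other 3 arrays did among themselves, and the day could not be read apart from the array. Without day 3 replicate 1 the median over genes was 0.57 for ribosomal proteins, 0.0067 for factors and -0.21 for all genes. The factors' distance from 0 thus rests on that array, while their median stayed above that of all genes. Above 0 on all 3 remaining arrays were 18 ribosomal proteins and 9 factors, beside 23.5% of all genes. Below 0 on all 3 were 6 ribosomal proteins and 6 factors, in place of 1 and 2 with all arrays, beside 33.3% of all genes.

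The difference between the families was smaller than the shift of that array but had the same sign on each array. The ribosomal median exceeded the factor median by 0.47 at day 2, by 0.38 and 0.55 on day 3 replicates 1 and 2, and by 0.19 at day 5, a mean of 0.40 ± 0.16 (SD, n = 4). A centring constant cancels in this difference. It was 0.41 without day 3 replicate 1, and the lowest and highest value without 1 array was 0.35 and 0.47. Against all genes, the ribosomal median stood at percentiles 75.7, 95.4, 84.9 and 74.2 of the arrays at day 2, day 3 replicates 1 and 2 and day 5, and the factor median at 51.6, 90.6, 57.3 and 67.8. No test was made of this difference, since the genes are not replicates and the members were chosen with earlier results known. The order of the members was in part shared between arrays. Over the 53 members the correlation between 2 arrays lay between 0.539 and 0.772, and over all genes between 0.316 and 0.489; members share arrays and, in places, features with related sequence, so no p is given.

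**Figure D2:**
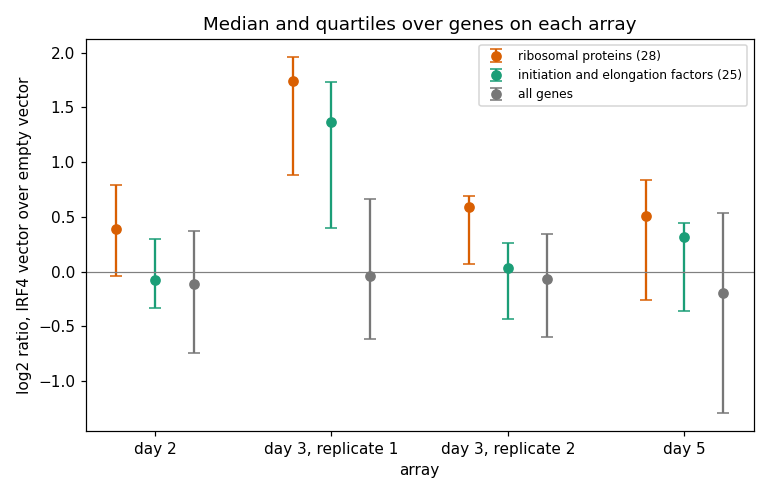
Median (points) and lower and upper quartile (bars) over genes of the log2 ratio (y axis, IRF4 vector over empty vector) on each of the 4 arrays (x axis), for ribosomal proteins, factors and all genes. The ribosomal median is above the factor median on each array, by 0.19 to 0.55, and both families are highest on day 3 replicate 1.

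The small subunit had a median of 1.01 over 14 genes, with 10 above 0 on all 4 arrays, and the large subunit a median of 0.58 over 14 genes, with 7 above 0. RPS12, a protein of the small subunit, had the highest mean of the ribosomal proteins, at 0.77, 1.81, 3.22 and 0.83 at day 2, day 3 replicates 1 and 2 and day 5. Its day 3 replicate 2 value came from 1 of its 2 features, which read 5.61 there while the other read 0.83. That reading is a whole-number one, with the empty vector channel at the low side. The mean of 1.66 ± 0.47 (SE, limma adjusted p = 0.146) was 1.06 without it, so the first place of RPS12 rests on 1 such reading.

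RPS29, a small zinc-binding protein of the 40S subunit, had the most features of the 5 highest ribosomal members. It lay at 1.10, 2.19, 0.82 and 1.03 on the arrays in that order, a mean of 1.28 ± 0.33 (SE, adjusted p = 0.133), or 2.43-fold. Its 4 features had means between 1.24 and 1.33, and all 4 were above 0 on every array. RPS4X, an X-linked protein of the small subunit, had 4 features with means between 1.00 and 1.01.

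RPS3A, also a 40S protein, had a mean of 1.13 ± 0.31 (SE, adjusted p = 0.142) at 0.67, 1.95, 0.97 and 0.95. Of its 5 features 4 followed the common pattern with day 3 replicate 1 highest, at 2.05 to 2.43. The fifth read 0.64 there and 2.46 and 2.08 on day 3 replicate 2 and day 5. RPS25, which is known to be needed for initiation at some viral internal entry sites, lay at 0.79, 1.96, 0.69 and 1.40 (mean 1.21, adjusted p = 0.137). RPS18, RPS20 and RPS21 had means between 1.03 and 1.07, each above 0 on 4 of 4 arrays.

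Other small subunit genes had lower means. RPS16 and RPS6, the S6 protein phosphorylated by S6 kinases, were above 0 on 4 of 4 arrays with means of 0.64 and 0.57, and RPS6 was at 0.10, 1.60, 0.13 and 0.47. RPS2, RPS9 and RPS15A had means of 0.15, 0.29 and 0.31. For RPS15A the order of the arrays was inverted, with -1.41 on day 3 replicate 1 and 1.64 at day 5, on 1 feature. RPS3, which sits where mRNA enters the ribosome, was at -1.25, 0.91, -1.49 and -0.90, a mean of -0.68 ± 0.45 (SE, adjusted p = 0.370). It was thus below 0 on 3 arrays and above 0 on day 3 replicate 1.

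On the large subunit, RPL11 had the highest mean. Together with RPL5 and the 5S rRNA, RPL11 forms a particle known for binding MDM2, the inhibitor of p53. It lay at 0.89, 2.19, 1.22 and 1.07, a mean of 1.34 ± 0.32 (SE, adjusted p = 0.130), on 1 feature. RPL5 had a mean of 0.44 ± 0.37 (SE, adjusted p = 0.467) at 0.58, 1.21, 0.65 and -0.68. At day 5, 1 of its 4 features gave -4.30, a whole-number reading, while the other 3 read 0.34 to 0.77. Without that reading RPL5 was at 0.52 at day 5 and had a mean of 0.74, above 0 on 4 of 4 arrays.

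RPL22, an RNA-binding protein known from its role in lymphocyte development, was at 1.12, 1.95, 0.90 and 0.68, a mean of 1.16 ± 0.31 (SE, adjusted p = 0.137). Its paralogue RPL22L1 was at -0.18, 1.51, 0.20 and -0.49. RPL22 exceeded RPL22L1 on 4 of 4 arrays, by 0.44 to 1.30, a mean of 0.90 ± 0.40 (SD, n = 4); each rests on 1 feature. RPL27 and RPL37A had means of 0.98 and 1.01, and RPL37 a mean of 0.72. The 2 features of RPL37 disagreed, at 0.82, 1.99, 0.77 and 0.75 for the first and -0.10, -0.52, 0.97 and 1.07 for the other, so its gene value describes neither.

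The lowest members of the large subunit were RPL10, RPL8 and RPL21P106. RPL10, which is added late in the maturation of the 60S subunit, was at -0.53, 0.27, -1.24 and -1.41, a mean of -0.73 ± 0.36 (SE, adjusted p = 0.264). RPL8 was at -0.70, 0.43, -1.14 and -1.42, a mean of -0.71 ± 0.38 (SE, adjusted p = 0.282). RPL10, RPL8 and RPS3 thus had the same signs, below 0 on all arrays but day 3 replicate 1, and each is measured by 1 feature. RPL21P106 carries the symbol of a pseudogene and was the 1 ribosomal member below 0 on all 4 arrays, at -1.91, -0.38, -0.94 and -3.84 (mean -1.77, adjusted p = 0.167). Of its 8 readings 3 were whole-number ones with the IRF4 vector channel at the low side, -4.19 at day 2 and -5.18 and -2.49 at day 5. Without them its mean was -0.31 over 3 arrays, with 0.38 at day 2 (adjusted p = 0.639), so its place as the lowest member rests on such readings. The parent gene RPL21 lay at 0.85 on 2 features. Ribosomal protein genes have many processed pseudogenes, so cDNA spots may hybridise with transcripts of related sequence.

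RPL13 was the most often spotted member, on 11 features. Its mean was 0.16 ± 0.33 (SE, adjusted p = 0.777), with -0.04, 1.08, -0.20 and -0.22 on the arrays. On day 3 replicate 1 all 11 features were above 0, between 0.82 and 1.66. Their means ran from -0.17 to 0.66, and 3 of the 11 were above 0 on every array. With this many spots RPL13 lay near the array median apart from day 3 replicate 1, unlike RPS29 or RPS4X. RPL9 was near 0 as well, with a mean of 0.13 ± 0.28 (SE, adjusted p = 0.773).

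**Figure D3:**
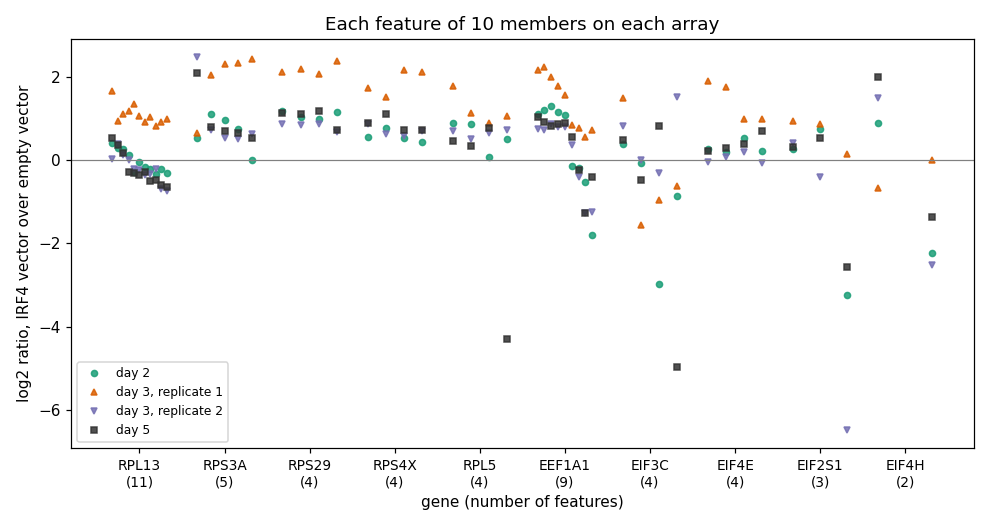
Log2 ratio (y axis, IRF4 vector over empty vector) of each feature on each array for 10 members (x axis, number of features in brackets; features of a gene are ordered by their mean). The features of RPS29 and RPS4X lie close together, while those of EEF1A1 have means from -0.68 to 1.27. Single readings of RPL5 and EIF3C lie far from the rest. A feature of EIF2S1 lies below its others on each array, and the 2 features of EIF4H disagree.

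Features of the same gene did not always agree. Of 18 ribosomal proteins with several features 3 had feature means on both sides of 0 (RPL13, RPL5 and RPS2), and of 12 such factors 5 did (EEF1A1, EEF1D, EIF2S1, EIF3C and EIF4H). This count depends on how near 0 a gene lies and does not compare the families' agreement: the feature means of EEF1D spanned 0.34, and those of RPL37, both above 0, spanned 0.73. Counted by feature, 45 of 68 ribosomal features (66.2%) and 19 of 52 factor features (36.5%) were above 0 on 4 of 4 arrays, beside 19.6% of the 10169 features with 1 symbol. The counts are not independent, since features of a gene share a target.

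EEF1A1, which delivers aminoacyl-tRNAs to the ribosome, was measured by 9 features that did not agree. For 5 features the means were 1.08 to 1.27 and every array was above 0. The other 4 had means of 0.41, -0.01, -0.63 and -0.68. On day 3 replicate 1 all 9 were above 0, at 0.55 to 2.24. The gene value of 0.57 ± 0.32 (SE, adjusted p = 0.299) averages these unlike features, and the position of the features in the transcript was not tested. The exchange factor subunit EEF1B2 lay at 0.23, 1.99, 0.10 and 0.32 (mean 0.66, adjusted p = 0.331), and EEF1D, another subunit of that complex, at -0.10, 0.93, -0.28 and -1.15 (mean -0.15). The 3 elongation factors thus shared only the high day 3 replicate 1.

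EIF6 had the highest mean of all 53 members. It binds the 60S subunit, takes part in its maturation and keeps it from joining the small subunit too early. EIF6, measured by 1 feature, read 1.18, 2.39, 1.35 and 1.82, a mean of 1.68 ± 0.31 (SE, adjusted p = 0.119), or 3.21-fold. None of these was a whole-number reading. It stood at percentiles 95.7, 98.9, 97.7 and 97.4 of all genes on the arrays in that order. The 95% interval from the fit ran from 0.93 to 2.44. Over 16 alternative settings other than the turned sign EIF6 stayed between 1.27 and 2.10, with adjusted p between 0.0314 and 0.259.

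The initiation factors (18 genes) had a median of 0.50, with 7 above 0 on all 4 arrays. EIF3H and EIF3E belong to eIF3, the scaffold of the initiation complex on the 40S subunit. EIF3H was at 0.53, 1.37, 0.92 and 0.74 (mean 0.89, adjusted p = 0.157), and EIF3E at 0.29, 1.58, 0.22 and 0.35 (mean 0.61). Other eIF3 subunits did not share this, with means of 0.17 for EIF3B, -0.11 for EIF3M (-0.29 over 3 arrays without a whole-number reading at day 2) and -0.46 for EIF3C. EIF3C had 1 feature with a mean of 0.79 and 3 with means between -1.23 and -0.53, so its level is uncertain; without 1 whole-number reading of -4.97 at day 5 its mean was -0.13. EIF5, which triggers GTP hydrolysis on eIF2 at the start codon, was at 0.53, 1.87, 0.49 and 0.61 (mean 0.88, adjusted p = 0.193).

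Subunits of eIF2, which brings the initiator tRNA, and of its exchange factor eIF2B were at different levels. EIF2S1, the alpha subunit on which stress kinases act, had a mean of -0.70 ± 0.47 (SE, adjusted p = 0.371) at -0.74, 0.64, -2.15 and -0.57. This rests on 1 feature at -3.04, which read -6.48 on day 3 replicate 2, since the other 2 features had means of 0.44 and 0.49. With the median of its features EIF2S1 lay at 0.27, so the sign depends on how the features are combined. EIF2S2, the beta subunit, was at -0.08, 1.73, -0.09 and 0.19 on 3 features with means of 0.36 to 0.55. EIF2B2 and EIF2B1 had means of 0.70 (adjusted p = 0.268) and 0.49. EIF1AX, a scanning factor, was near 0 on 2 arrays, at -0.05 and -0.03, with a mean of 0.51.

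The lowest mean of the factors was that of EIF4G1. EIF4G1, the scaffold that joins the cap-binding protein to eIF3, was below 0 on 4 of 4 arrays, at -1.06, -1.47, -2.85 and -2.90, a mean of -2.07 ± 0.41 (SE, adjusted p = 0.124), or 4.20-fold lower. None of its readings was a whole-number one. Its relative EIF4G2, also called DAP5, which lacks the part that binds EIF4E, was at -0.18, 2.61, -0.42 and 0.12. EIF4G2 exceeded EIF4G1 on 4 of 4 arrays, by 0.88 to 4.08, a mean of 2.60 ± 1.33 (SD, n = 4), with 1 feature for each gene.

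EIF4E, the cap-binding protein, lay at 0.30, 1.41, 0.04 and 0.40, a mean of 0.54 ± 0.32 (SE, adjusted p = 0.331). Its 4 features had means between 0.46 and 0.59. EIF4E2, a relative known for repressing translation, was at -0.54, -1.27, -1.03 and 0.19 (mean -0.66, adjusted p = 0.265), lowest on day 3 replicate 1 as RPS15A was. Without a whole-number reading of 1 of its features its day 5 value was 1.19 and its mean -0.41. EIF4E exceeded EIF4E2 on 4 of 4 arrays, by 0.22 to 2.68, with all readings used, and on 3 of 4 without that reading, where the difference at day 5 was -0.78. EIF4H, a helper of the helicase EIF4A, had 2 features with means of 0.93 and -1.53, so its gene value of -0.30 describes neither.

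Members that regulate factors were 4 genes on 1 feature each, with a median of 0.04. EIF4EBP1, the EIF4E inhibitor that mTOR phosphorylates, was at -0.34, 0.57, -0.43 and 0.30 (mean 0.03, interval -0.70 to 0.76). EEF2K, the kinase that inhibits EEF2, had a mean of 0.05 (interval -0.61 to 0.71), and EEF2KMT, a methyltransferase of EEF2, a mean of 0.20 (interval -0.46 to 0.86). These 3 intervals include 0 and also differences of more than 0.7 on the log2 scale. EIF2AK3 encodes PERK, the kinase that acts on the eIF2 alpha subunit under stress of the endoplasmic reticulum. It was below 0 on 4 of 4 arrays, at -0.49, -0.35, -1.38 and -4.90, a mean of -1.78 ± 0.79 (SE, adjusted p = 0.225). The day 5 value is a whole-number reading, with the IRF4 vector channel at the low side, and without it the mean was -0.74 over 3 arrays (adjusted p = 0.277).

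No trend over days could be separated from the spread of the arrays. Lowest at day 5 by a wide margin were EIF2AK3 (-4.90) and RPL21P106 (-3.84), both from whole-number readings on the array where the values of all genes were widest. EIF4G1 was as low on day 3 replicate 2 as at day 5.

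Other genes of translation, listed by symbol, gave 0 genes past the threshold in either direction. RPLP1, a protein of the ribosomal stalk that the symbol rule leaves out, lay at 0.46. Of 12 mitochondrial ribosomal proteins 3 were above 0 on all 4 arrays (median 0.15), which sets them below the cytosolic ones in these arrays without a test. Aminoacyl-tRNA synthetases had a median of 0.42 over 8 genes, with TARS1 at 1.36 and LARS1, with a whole-number reading on 1 of its 2 features at day 5, at -1.82. Termination, poly(A) binding and nascent chain genes had a median of 0.50 over 6, from TPT1 at 1.43 to PABPC1, the poly(A)-binding partner of EIF4G1, at -2.79 (adjusted p = 0.155), where the 2 features of PABPC1 disagreed widely. Ribosome assembly genes had a median of -0.21 over 8, with NPM1 at 0.89 and PES1 at -2.17, and 1 of 8 above 0 at day 2 and at day 5. Translation signalling genes had a median of 0.36 over 10. PDCD4, an inhibitor of EIF4A, lay at 1.10, MYC at 0.82 and MTOR at 0.65. AKT1 at -1.11 and EIF2AK2, an eIF2 alpha kinase, at -0.98 were both below 0 on all 4 arrays. PDK1 was counted among the 10, but its symbol is that of pyruvate dehydrogenase kinase 1, a metabolic enzyme. The median without PDK1 was not computed. On its 1 feature PDK1 lay at -4.90, -0.926, -0.265 and 0.684, a mean of -1.35. Its day 2 value is a whole-number reading, on which this mean rests.

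The mouse array of the series named 5 counterparts on 9 features. These are ratios of Cy5-labelled RNA of cultured spleen B cells over a Cy3-labelled pool of lymphoid and macrophage lines, in adult Balb-c cells heterozygous (Het, -/+) or homozygous (KO, -/-) for the loss of Irf4, unstimulated or with lipopolysaccharide (LPS), an inducer of B-cell growth, for 24, 48 or 96 h (3, 2, 2 and 4 Het arrays and 3 KO arrays at each time). On 3 arrays titled KO, replicate 3 at 24 h and replicates 1 and 3 at 48 h, the source and genotype fields give Het instead, and the grouping here uses the titles. The mouse values are described without a test, are not on the same scale as the human ones, and 0 means the level of the array median relative to the pool.

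Rps15a, a 40S protein, was above 0 on 21 of 23 mouse arrays, with a median of 0.55. At 96 h it was 0.32 to 1.18 in Het and -0.06 to 0.12 in KO, and these ranges did not overlap. Of all 331 mouse genes 12.7% were higher in Het than in KO at 96 h without overlap, and of the 5 counterparts 1 was. None of the arrays with conflicting labels is at 96 h. At 48 h the ranges overlapped, 0.39 to 0.77 and 0.55 to 0.97, and the 1 KO array whose labels agree read 0.68. Rpl27 lay at -2.67 to 1.06 over all arrays, and its 96 h ranges were -0.55 to 0.39 in Het and -0.55 to -0.36 in KO. The translocase Eef2 was at -1.03 to -0.09 in Het and -1.04 to -0.96 in KO at 96 h, below 0 on all 7 arrays. Eif2s2 was at 0.45 to 0.46 in Het at 48 h and at -2.34 to -0.81 at 96 h; in KO the ranges were -0.19 to 0.05 and -1.61 to -1.34, with -0.19 on the 48 h array whose labels agree. Eif1a was at 1.11 to 2.29 in Het at 24 h and -0.87 to 0.36 at 96 h. In KO, Eif1a was at 0.52 to 0.75 at 48 h, 0.52 on the array whose labels agree, and at -0.60 to -0.47 at 96 h. In Het at 48 h it was at 0.85 to 0.99. In Het, Eef2, Eif1a and Eif2s2 were higher at 48 h than at 96 h with no overlap, as were 42.3% of the 331 mouse genes. In KO all 5 counterparts were, beside 62.5% of the mouse genes, so the lower values at 96 h are common on these arrays and are not particular to the counterparts.

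**Figure D4:**
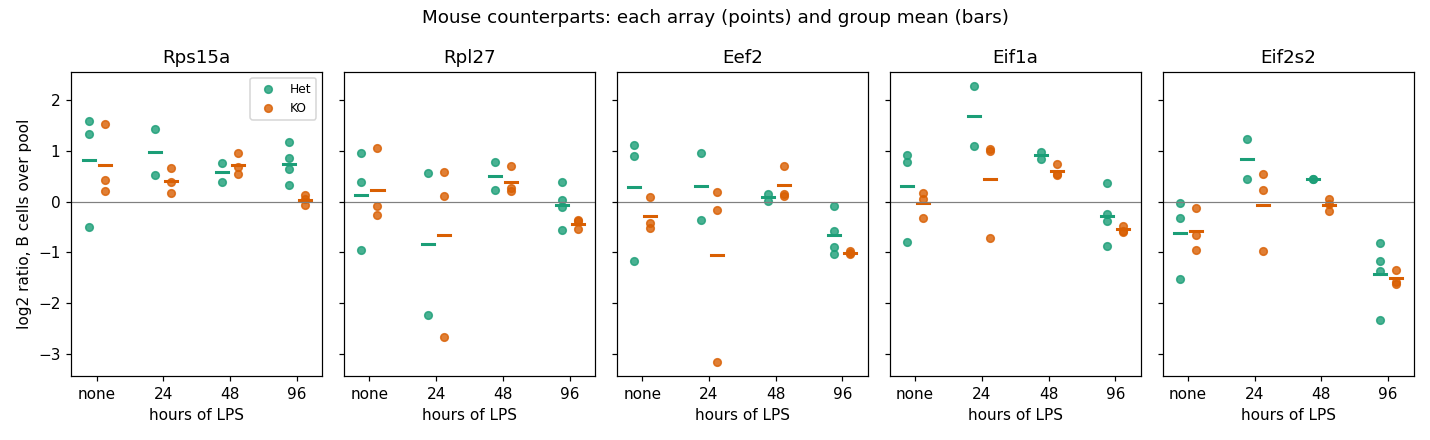
Log2 ratio (y axis, B cells over the reference pool, each array centred on its median) of the 5 mouse counterparts by hours of LPS (x axis, none being unstimulated) in Het and KO cells; points are arrays and bars group means. The group means of Eif2s2 and Eif1a are lowest at 96 h in both genotypes, and Rps15a in KO lies between -0.06 and 0.12 at 96 h.

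Sequences around the gene start were available for mouse genes only. They are shown for the mouse counterparts other than Eif1a, as a description of pyrimidine runs near the annotated start. The 30 bases below come from RefSeq (GRCm38.p6), on the gene's strand, 5′ to 3′, with the longest run of C or T between 20 bases before and 30 bases after the annotated start in capitals. The windows are chr7:118116138-118116167 on the minus strand, chr11:101442225-101442254 on the plus strand, chr10:81176631-81176660 on the plus strand and chr2:154892892-154892921 on the minus strand.
Rps15a: gcccaCTCTCTTTCTgccatcttccctcgc
Rpl27: ccggaacgctctgTTCCTgtctgctgctcg
Eef2: gttgacgtcagcggTCTCTTCCgccgcagc
Eif2s2: cacgtaaggttggCTTTactgtacgcctgc
The run was 10 bases long in Rps15a, 5 in Rpl27, 8 in Eef2 and 4 in Eif2s2. The median longest run was 5 over all mouse genes. Relative to the annotated start the runs began at -15 in Rps15a, -7 in Rpl27, 15 in Eef2 and -2 in Eif2s2. None thus began at the annotated start, and whether any is a 5′ terminal oligopyrimidine tract was not tested. Of the 22 mouse genes that carry the symbol of a human ribosomal member, 10 (45.5%) had a run of at least 8 bases in that stretch. Of the 18 matched to the factors 4 (22.2%) did, beside 21.5% of the 27025 mouse genes in the table. A run of these letters is a description of the window, and annotated starts can be several bases from the used one.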

How the data were processed

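Each array was deposited as 1 log2 value per feature, a ratio of both dyes, with none missing. Scanner, background correction and any normalization by the authors are not given here. Total RNA came from a Trizol extraction and dyes were built in during cDNA synthesis, per the labels. Symbols came from the platform annotation: of 15246 human features 10169 had 1 symbol, 4 several and 5073 none. Single-channel signals were not used, so spot background and saturation could not be checked, and the number of arrays limits the precision.

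Each array was centred on its median, and features of a gene were averaged. Ratios were tested against 0 with limma 3.58.1 in R 4.3.3 (2-sided, empirical Bayes, Benjamini-Hochberg over all genes). On simulated data of this size the fit called 75 of 100 genes with a log2 ratio of size 2, 7 of 100 with size 1, and 9 of 4404 without one. Named in each family were members past the threshold, the 5 highest and 5 lowest means, the 3 with most features and those that regulate factors; further members are named to complete a complex. EEF2KMT was put with the regulators after its symbol was read. EIF1AY is Y-linked, counted, and given no level. Members and lists were chosen with earlier results of these data known.

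Alternatives changed the centring, scaling, feature summary, weights, prior, database number range (a number in the array titles that falls into 2 ranges), whole-number readings and the arrays used. Mouse values were centred in the same way and summarised with pandas 2.3.3 in Python 3.11.15.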

Additional observations from a re-analysis of the deposited data

Results flagged for a closer look

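In these 4 arrays a single array stood far from the other 3 for 9 members and for the ribosomal median, by Dixon's criterion, which chance alone meets in about 1 of 20 groups of normal values. That is 10 of 55 values tested (18.2%), beside 10.4% of all genes. The 55 values pool members with summary values such as the ribosomal median, while the share of all genes is over single genes only. In 9 of the 10 cases day 3 replicate 1 was high. Its values were 1.41 for EEF1A1, 1.99 for EEF1B2, 1.73 for EIF2S2, 1.58 for EIF3E, 1.87 for EIF5, 1.085 for RPL13, 2.10 for RPS18, 1.51 for RPS9 and 1.75 for the median of ribosomal proteins. The same array was high in this way for 5.10% of all genes. EEF2KMT was low at day 2, at -0.298.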

How the results depend on the processing

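No paired analysis was possible because no test compared groups that share replicate numbers. The count of all genes past the threshold, 5 (2 higher, 3 lower), was 1 (0 and 1) without centring, with centring over named features and with feature medians, and 0 (0 and 0) with day 3 averaged first or the database range as a term. It was 94 (21 and 73) after quantile normalization and 262 (81 and 181) with array weights. With values beyond 6 log2 units missing 5 genes were lower. With whole-number readings missing, a choice made after seeing the data, 3 genes passed (2 higher, 1 lower), and the family medians were 0.75 and 0.44. Without 1 array the count was 0 to 1, with 0 higher and 0 to 1 lower. Ribosomal members past the threshold were 0 except 1 with array weights, and factors 0 except 1 after quantile normalization and 2 with array weights. Taken as Cy3 over Cy5, the ribosomal median was -0.74, the factor median -0.44 and their difference -0.40. Without centring the median of all genes was -0.33 in place of -0.14. In that setting 15 ribosomal proteins and 4 factors were above 0 on all 4 arrays, beside 10.4% of all genes. Within the lower database range (day 3 replicate 1 and day 5) the family medians were 1.12 and 0.88, and within the higher 0.56 and -0.05. The difference of the families was 0.29 in the lower and 0.51 in the higher range and 0.54 over members with 2 or more features. Members near 0 changed sign without centring: EEF2K to -0.14, EIF4EBP1 to -0.17, RPL9 to -0.059 and RPL13 to -0.038. With array weights EEF2K was -0.035, EIF4EBP1 -0.25 and RPL13 -0.061. EIF4EBP1 was -0.039 after quantile normalization, EEF2K -0.006 with day 3 averaged first, and EIF2S1 0.27 with feature medians. Without 1 array, EEF2K ranged from -0.11 to 0.14, EIF4EBP1 from -0.15 to 0.18, RPL9 from -0.032 to 0.26 and RPL13 from -0.15 to 0.28, each lowest without day 3 replicate 1. With array weights EIF6 was 1.44 (limma adjusted p = 0.0314), EIF4G1 -2.28 (0.0365) and RPL11 1.19 (0.0446), and EIF6 was 1.73 (0.0451) after quantile normalization. The cause of these changes was not tested.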
